A study of Mus musculus with 2 samples.

Results

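The genes described here are the microRNA genes of the array that lie outside the imprinted domain running from Dlk1 to Dio3 on chromosome 12. A gene was included when its symbol began with Mir and a number, or with Mirlet, and when at least 1 probeset was assigned to it alone. This gave 260 genes with 265 probesets, out of 19939 genes measured by a probeset of their own. Of the 260, 256 are annotated as microRNAs and 4 are long noncoding host genes (Mir17hg, Mir99ahg, Mir100hg and Mir670hg). The cells were i-OSKM-ESC, mouse embryonic stem cells of strain 129 made from the KH2 line, in which doxycycline turns on 4 transgenes, for Oct4, for Sox2 with an epitope tag, for Klf4 and for c-Myc. The group with doxycycline received 4 µg/mL of the drug for 24 hours, and the group without it received fresh medium over the same time. The transgenes were present in both groups, and the cells were plated on gelatin. No cells without the transgenes were treated, so effects of the drug and of the factors cannot be told apart. Each group holds 1 array, with no replicate, so no difference below carries an error or a test.

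MicroRNAs are short RNAs that guide Argonaute proteins to messenger RNAs, which are then repressed. They are cut by Drosha and Dgcr8 from long primary transcripts, exported by Xpo5 as hairpins and cut again by Dicer1. Many are transcribed in clusters from a common primary transcript, and others lie inside host genes. The seed, bases 2 to 8 of the mature strand, largely sets which messengers are bound, so microRNAs of different clusters can share targets. The Mir17 to Mir92 cluster is known as an oncogenic cluster and as a target of Myc, the Mir302 cluster and the Mir290 to Mir295 cluster mark pluripotent cells, and let-7 microRNAs accumulate as cells differentiate.

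The mature sequences of the microRNAs that the comparison turns on are given first, because the 3 paralogous clusters below repeat the same few seeds. They are RefSeq sequences of build GRCm38.p6, written 5′ to 3′ with the seed in capitals. The first 6 share the seed AAAGUGC and come from the Mir17, Mir106a and Mir106b clusters. The next 3 are miR-18a and the miR-19 pair, whose seeds are AAGGUGC and GUGCAAA. The following 4 share AUUGCAC, and 3 come from the Mir302 cluster, whose seeds overlap that of miR-17. The last 3 are let-7d and let-7i, with the let-7 seed GAGGUAG, and miR-30e.
miR-17-5p: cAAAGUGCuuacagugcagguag
miR-20a-5p: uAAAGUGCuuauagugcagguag
miR-20b-5p: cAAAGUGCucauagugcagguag
miR-106a-5p: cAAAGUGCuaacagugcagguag
miR-93-5p: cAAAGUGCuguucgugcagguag
miR-106b-5p: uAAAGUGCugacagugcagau
miR-18a-5p: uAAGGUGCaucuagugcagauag
miR-19a-3p: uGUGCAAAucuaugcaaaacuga
miR-19b-3p: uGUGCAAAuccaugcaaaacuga
miR-92a-3p: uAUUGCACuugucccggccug
miR-363-3p: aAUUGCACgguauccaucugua
miR-25-3p: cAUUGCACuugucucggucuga
miR-367-3p: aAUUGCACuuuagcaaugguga
miR-302b-3p: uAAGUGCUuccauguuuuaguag
miR-302d-3p: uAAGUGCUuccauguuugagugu
miR-302c-3p: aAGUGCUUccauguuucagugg
let-7d-5p: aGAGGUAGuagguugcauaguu
let-7i-5p: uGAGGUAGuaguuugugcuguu
miR-30e-5p: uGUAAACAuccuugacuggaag

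The hairpins of the Mir17 to Mir92 cluster span chr14:115043671-115044506 on the plus strand of GRCm38.p6, those of the Mir106a to Mir363 cluster chrX:52741693-52742567 on the minus strand, those of the Mir106b to Mir25 cluster chr5:138165321-138165818 on the minus strand inside the gene Mcm7, and those of the Mir302 cluster chr3:127545228-127545807 on the plus strand. The array files name no genome build. The mature miR-19b strand is the same sequence for Mir19b-1 and Mir19b-2. The sources used here do not give probe sequences, and whether paralogous hairpins hybridise to each other's probesets was not tested.

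All values are RMA values on a log2 scale. A difference is the value with doxycycline less the value without it. The expression filter asked for a value of at least 6.48, the median over the table, on at least 1 array. A gene that passed was called when it differed at least 2-fold. The RNA was total RNA copied into sense-strand cDNA by a whole-transcript kit, so a value does not separate primary transcript, hairpin and mature microRNA. In cells measured in bulk, fewer cells that express a gene and less RNA per cell cannot be told apart.

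The labels and the cell type were checked first. Sox2 was 10.88 in the array labelled plus doxycycline and 11.89 in the other, a difference of -1.01. That is opposite in sign to the induction of a Sox2 transgene that the label states. Pou5f1 (0.41), Klf4 (0.43) and Myc (0.35) had positive differences. Whether the probesets, 1 for each factor, read the transgenes, the endogenous transcripts or both was not tested. Each direction below therefore rests on the labels. All 9 embryonic stem cell markers passed the filter, with values between 10.3 and 12.5 with doxycycline and between 10.4 and 13.0 without it. Their median difference was -0.44, and the log2 of their summed signal was 14.7 with doxycycline against 15.1 without it. The filter was passed by 4 of 7 measured fibroblast markers, 2 of 6 of trophectoderm, 4 of 5 of primitive endoderm and 3 of 5 neural markers. The log2 of the summed signal was 9.40 against 9.09 for fibroblast markers, 8.97 against 9.25 for trophectoderm, 9.23 against 9.31 for primitive endoderm and 10.2 against 9.51 for neural markers, with doxycycline named first. The part of these cell types in the microRNA differences was not tested.

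Of the 260 microRNA genes, 66 passed the expression filter, against 11191 of all 19939 genes. The values of the 260 ran from 2.84 through a median of 5.14 to 9.52 with doxycycline and from 2.84 through a median of 5.19 to 9.47 without it. Only 1 member was called lower and 0 were called higher. Over all genes that passed, 0.768% were called lower and 0.92% higher, so a single call among 66 stays close to the background. The median difference of the 260 was 0.01, as it was over all genes, and 226 of them (86.9%) lay within 0.5 of 0, against 92.1% of all genes. The robust SD of the differences, from the median absolute deviation, was 0.279 for the members and 0.233 for all genes. The difference was positive in 135 and negative in 125. The 34 members beyond 0.5 lay at many loci.

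**Figure D1:**
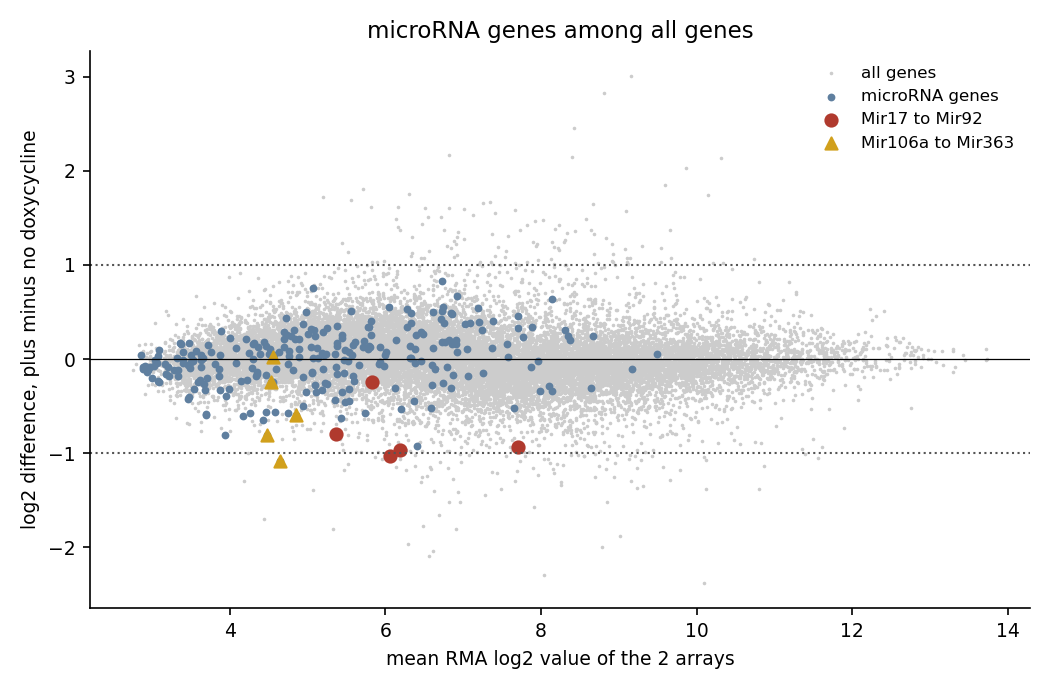
Log2 difference (vertical axis, plus minus no doxycycline) against the mean RMA log2 value of both arrays (horizontal axis), 1 point a gene: all genes in grey, the 260 microRNA genes in blue, the Mir17 to Mir92 genes in red and the Mir106a to Mir363 genes as yellow triangles. Dotted lines mark 2-fold. Most microRNA genes lie inside the grey cloud, and 4 of the 5 red points and 3 of the 5 triangles lie at -0.59 or below, along its lower edge.

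The Mir17 to Mir92 cluster held the lowest differences among members that passed the filter. All of its 5 measured microRNAs were lower with doxycycline, with a median difference of -0.94. Mir19b-1, whose seed GUGCAAA is shared with Mir19a, had 5.55 with doxycycline and 6.57 without it, a difference of -1.03 or 2.04-fold, and was the member called lower. Mir19a had 5.71 against 6.67, a difference of -0.97, just outside the 2-fold rule. Mir18, which makes miR-18a, had 7.23 against 8.17, a difference of -0.94. These 3 genes thus sat within 0.1 of each other in the size of their difference and on both sides of the threshold. Mir20a had 4.96 against 5.76 (-0.80) and Mir17 had 5.71 against 5.95 (-0.25), both below the filter on each array.

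The transcript that carries these hairpins went the same way. Mir17hg, the long noncoding host of the cluster, had 6.33 with doxycycline and 6.85 without it, a difference of -0.52. A further probeset assigned to both Mir17hg and the last microRNA of the cluster, Mir92-1, had 6.64 against 7.42, a difference of -0.77, and entered no count because it names 2 genes. Each of the 7 probesets of the locus was therefore lower with doxycycline, although they lie in the same primary transcript and are not separate observations. Among the genes of like mean level, taken in 20 bins, the difference of Mir19b-1 lay at percentile 0.301, that of Mir20a at 0.702, that of Mir19a at 0.903, that of Mir18 at 1.0, that of Mir17hg at 4.51 and that of Mir17 at 7.62. With 32 added to each linear value, which shrinks the differences of dim probesets, the cluster median was -0.67 and Mir19b-1 was at -0.69, no longer called. Mir19a, Mir19b-1 and Mir17hg passed the filter only through the array without doxycycline.

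**Figure D2:**
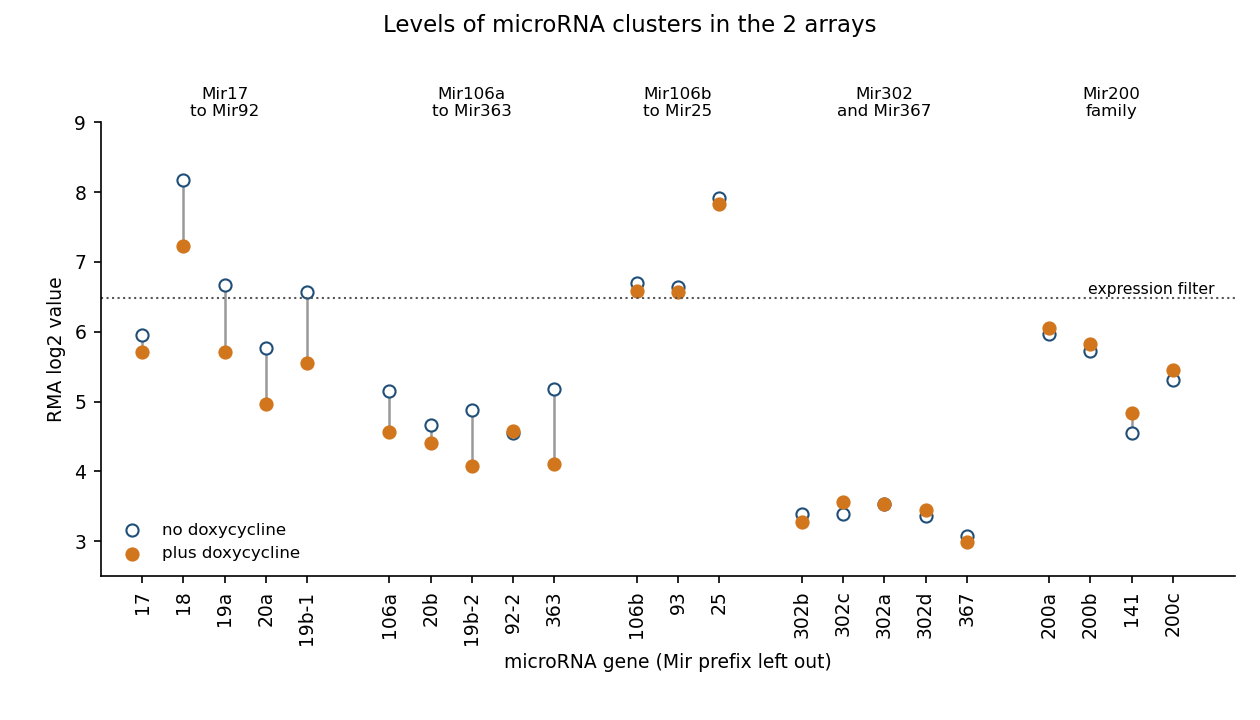
RMA log2 value (vertical axis) of each measured microRNA gene of 5 clusters or families (horizontal axis), as open circles without doxycycline and filled circles with it, 1 array each; the dotted line is the expression filter at 6.48. The 5 Mir17 to Mir92 genes and 4 of the 5 Mir106a to Mir363 genes are lower with doxycycline, while in the Mir106b to Mir25, Mir302 and Mir200 groups the circles nearly coincide, apart from Mir141 at 0.28.

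The Mir106a to Mir363 cluster on chromosome X is a paralog of Mir17 to Mir92 and encodes microRNAs with the same seeds. Its 5 measured genes were all below the filter on both arrays, and 4 of them were lower with doxycycline, with a median of -0.59. Mir363, with the seed AUUGCAC, had 4.10 against 5.19 (-1.09), the most negative difference of all 260 members. Mir19b-2, which makes the same mature strand as Mir19b-1, had 4.07 against 4.87 (-0.80). Mir106a had 4.56 against 5.15 (-0.59) and Mir20b 4.41 against 4.66 (-0.25). Mir92-2 had 4.58 against 4.55, a difference of 0.03 that became -0.02 after a loess trend on mean level was removed. The table holds no detection call, so levels this low cannot be told from background signal, and with 32 added to linear values the median was -0.28.

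The Mir106b to Mir25 cluster, the third paralog, had smaller differences. It lies inside Mcm7, a subunit of the replicative helicase. Mir106b had 6.58 against 6.69 (-0.11), Mir93 6.57 against 6.64 (-0.06) and Mir25 7.84 against 7.92 (-0.08). All 3 passed the filter on both arrays and were negative, with a median of -0.08. Mcm7 itself had 10.98 against 11.28, a difference of -0.30. No test of the difference between the clusters is possible with 1 array a group.

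Read by seed, the 6 genes with the seed AAAGUGC were all negative, from Mir93 at -0.06 to Mir20a at -0.80, with a median of -0.25. The 3 genes with the miR-19 seed GUGCAAA had a median of -0.97, between -1.03 and -0.80. The 6 genes with AUUGCAC were split, since Mir363 had -1.09 while Mir92b, which lies alone on chromosome 3, had 7.27 against 6.89, a difference of 0.38. Mir25 and Mir367 were near 0 (-0.08 each), and Mir32 had -0.16. Seed and genomic cluster overlap in these genes, so a pattern by seed and a pattern by cluster cannot be told apart for miR-19. The seed AGUGCAA joined Mir130a (4.10 against 4.75, -0.65) and Mir301 (3.98 against 4.55, -0.58), both below the filter, with Mir130b at -0.02. Mir301b, which shares a cluster with Mir130b and was not matched to this seed here, had 5.37 against 5.69 (-0.32). Mature sequences were used for 230 genes, so a seed group may lack members.

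Of the clusters that mark pluripotent cells, the Mir302 and Mir367 cluster gave signal near the bottom of the scale on both arrays. Mir302a had 3.53 with doxycycline and 3.54 without it, Mir302b 3.28 against 3.39, Mir302c 3.56 against 3.39, Mir302d 3.44 against 3.36 and Mir367 2.99 against 3.07. The differences had both signs and a median of -0.01, which turned to 0.03 after loess. The 9 genes of the Mir290 to Mir295 cluster in the reference table were named by no single-gene probeset and were not analysed here. Let-7 genes were split. Mirlet7i, alone on chromosome 10, had 7.26 against 6.59, a difference of 0.67 and the second largest positive one among members that passed. Mirlet7d had 7.39 against 7.91, a difference of -0.52. These were the only let-7 genes that passed the filter, and they differed in opposite directions.

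The other let-7 genes lay below the filter. Mirlet7g had 5.11 against 5.74 (-0.63), Mirlet7f-1 4.46 against 5.03 (-0.57) and Mirlet7e 5.94 against 6.47 (-0.53). Mirlet7f-2 (-0.20), Mirlet7a-2 (-0.18), Mirlet7a-1 (0.01) and Mirlet7c-1 (0.07) were closer to 0. The median of the 9 was -0.20, or -0.069 with 32 added to linear values. Mir98, which has the let-7 seed under another name, had 5.14 against 5.58 (-0.43). Over the 9 genes matched to the seed GAGGUAG, the differences had a median of -0.43, so the median depends on which genes are counted. These 9 take in Mir98 and leave out Mirlet7a-2, to which the source of mature sequences matched none with this seed. The median of -0.43 therefore does not cover every let-7 gene. Mirlet7e lies between Mir99b (7.46 against 6.91, 0.54) and Mir125a (0.29) on chromosome 17, so neighbours in a cluster of 3 differed in sign. Mirlet7d and Mirlet7f-1 share a cluster on chromosome 13 with Mirlet7a-1.

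The Mir200 family, known for keeping cells epithelial, had small positive differences in its 4 genes with a probeset of their own, and a negative one in the fifth. Mir200a had 6.05 against 5.97 (0.08), Mir200b 5.83 against 5.72 (0.11), Mir200c 5.46 against 5.31 (0.14) and Mir141 4.84 against 4.55 (0.28). All were below the filter. Mir429 is read by a probeset it shares with Gm13648, which had 3.61 against 4.10, a difference of -0.49 and larger in size than any of the 4. The median of the 4 was 0.12, or 0.023 after subtraction of the median difference of genes of like level. The other clusters of at least 4 measured genes also had medians near 0. These were 0.12 for Mir500 to Mir532 inside Clcn5, whose most different gene was Mir362 at -0.27, 0.07 for the 4 genes of the Mir466 to Mir669 cluster (Mir297b at 0.32), -0.05 for Mir450b to Mir542 (Mir542 most different) and 0.0012 for the Mir463 to Mir471 group on chromosome X (Mir470 most different). None of these 17 genes passed the filter.

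Outside the named clusters, Mir30e had the most negative difference. It had 5.94 with doxycycline and 6.86 without it, a difference of -0.92, and passed the filter only through the array without the drug. Its host Nfyc, a subunit of the CCAAT-binding factor, had 8.61 against 8.68, a difference of -0.07. Mir30c-1, in the same host, had 5.21 against 4.97, a difference of 0.25. The 2 hairpins of Nfyc therefore differed in sign, on either side of the host gene.

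The most positive difference was that of Mir345, on chromosome 12 outside the imprinted domain. It had 7.14 with doxycycline and 6.31 without it, a difference of 0.83 or 1.78-fold, at percentile 98.4 of genes of like level. Mir320 had 8.45 against 7.82 (0.64), Mir326 7.01 against 6.46 (0.55), Mir143 6.55 against 6.02 (0.53) and Mir211 6.98 against 6.47 (0.51). Further members with positive differences were Mir330 (0.50), Mir375 (0.49), Mir194-1 (0.49), Mir455 (0.47) and Mir181d (0.45). None reached 2-fold, and Mir345, Mir326, Mir143, Mir211, Mir330 and Mir375 passed the filter only through the array with doxycycline. Among members that passed the filter, the remaining negative differences were smaller, with Mir196a-1 at -0.45, Mir15a at -0.34, Mir674 at -0.34, Mir697 and Mir7-1 at -0.31 and Mir505 at -0.28.

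**Figure D3:**
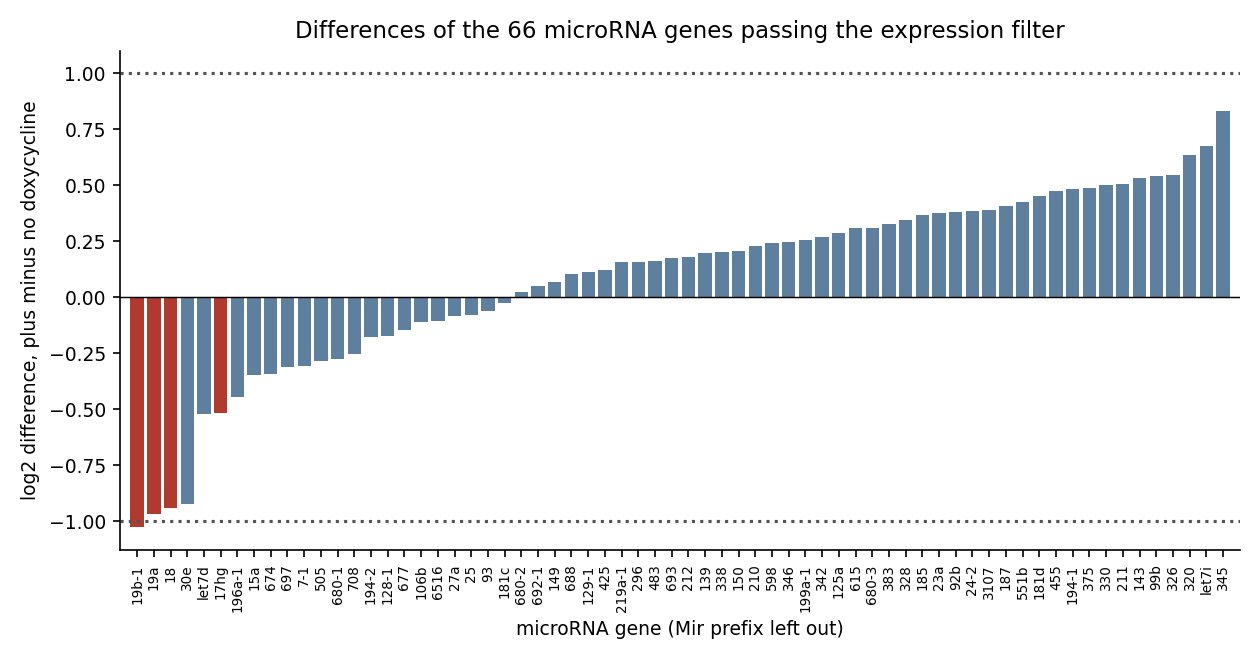
Log2 difference (vertical axis, plus minus no doxycycline) of the 66 microRNA genes that passed the expression filter (horizontal axis, in order of difference), with genes of the Mir17 to Mir92 locus in red and dotted lines at 2-fold. Mir19b-1 at -1.03 is the one bar past a dotted line, and the bars at the other end stop at 0.83 for Mir345.

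At 1.5-fold, 4 of the 66 were lower (Mir19b-1, Mir19a, Mir18 and Mir30e) and 3 were higher (Mir345, Mirlet7i and Mir320). The same threshold held for 3.8% of all passing genes in the lower direction and 3.24% in the higher. The lower count is therefore 1 locus plus Mir30e. Over the 66, the median difference was 0.18, against -0.03 over all passing genes, and 43 were positive. A gene could pass through its higher array alone, as 10 did through the array with doxycycline and 6 through the other, so this median describes these 66 only. The 6 members with the brightest probesets differed little, with Mir692-1 at 0.05, Mir6516 at -0.11, Mir346 at 0.25, Mir7-1 at -0.31, Mir139 at 0.20 and Mir598 at 0.24.

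The differences varied with the base composition of the hairpins. For the 219 members with a RefSeq hairpin, the difference had a Pearson r of 0.41 and a Spearman rho of 0.46 with GC content, a description over genes that share both arrays. In the third of hairpins with the lowest GC, 28.4% to 44.4%, the median difference was -0.11 and 17 of 73 were positive. In the third with the highest GC, 52.1% to 69.2%, the median was 0.14 and 52 of 73 were positive. Mean level varied with GC more strongly (r = 0.69), and after subtraction of bin medians by level the r with GC was 0.37. Without the Mir17 to Mir92 and Mir106a to Mir363 genes, the r of the difference with GC, not adjusted for level, was 0.41. The unadjusted trend thus did not come from those loci alone.

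The medians of Mir17 to Mir92 and Mir106a to Mir363 were also taken with the trend removed. The genes of both clusters are among those used to fit it. The Mir17 to Mir92 hairpins had a median GC of 43.9%, and with a linear GC trend over all members removed the cluster median was -0.83 in place of -0.94. The Mir106a to Mir363 median was -0.47 in place of -0.59. The Mir302 hairpins have a similar GC, with a median of 42.0%, and a median difference of -0.01. Their values lay between 2.99 and 3.56, near the bottom of the scale, where RMA compresses differences. Those of Mir17 to Mir92 lay between 4.96 and 8.17, so the 2 cluster medians do not compare genes of like level. Of the 66 passing members, 49 have a hairpin in the table, and their median was 0.16 before and -0.050 after removal of the trend, which also centres the members on a mean of 0. Base composition and level moved together in these genes, and their part in the differences was not tested.

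**Figure D4:**
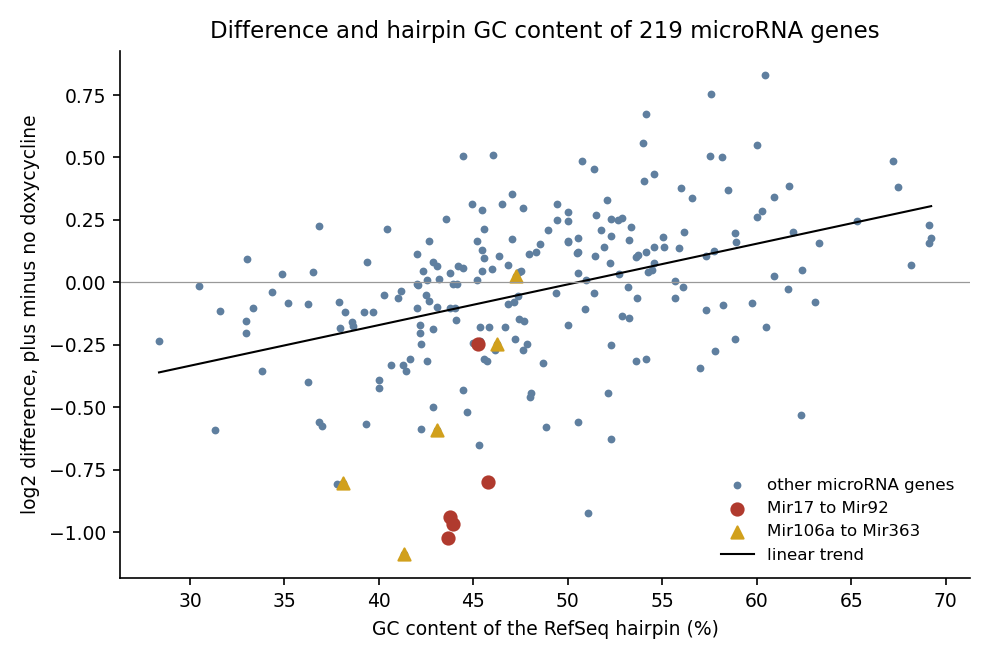
Log2 difference (vertical axis, plus minus no doxycycline) against the GC content of the RefSeq hairpin in percent (horizontal axis) for 219 microRNA genes, with the Mir17 to Mir92 genes in red, the Mir106a to Mir363 genes as yellow triangles and the linear trend as a line. Points climb from left to right by 0.16 per 10 percentage points, and 4 red points lie far below the line.

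The genes that carry microRNAs in their introns or exons were compared with them. A host was any measured gene on the same strand whose interval contains a microRNA gene, which gave 69 hosts and 84 pairs with 83 microRNAs. Of the hosts, 46 passed the filter and 0 were called, near the 1.69% of all passing genes called in either direction. The hosts with the largest differences were Fgf13 (0.91), which carries Mir504, Nexmif (-0.86) with Mir672, Chm (0.77) with Mir361, Slit3 (0.59) with Mir218-2, Pank1 (-0.56) with Mir107 and Spaca6 (-0.53) with Mirlet7e and Mir125a. Their microRNAs differed by -0.02 for Mir504, 0.11 for Mir672, -0.35 for Mir361, 0.43 for Mir218-2 and -0.08 for Mir107, all below the filter. Fgf13 and Slit3 passed the filter only through the array with doxycycline, and Nexmif and Spaca6 only through the other. The signs of host and microRNA were the same in 42 of the 84 pairs, and the Pearson r over pairs was 0.13, as a description. In the 17 pairs where both passed the filter, the signs were the same in 11 and the r was 0.21. A host that carries several microRNAs enters several pairs. In 40 microRNAs the host passed the filter while the microRNA did not.

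Mest and Igf2 are imprinted host genes outside the Dlk1 to Dio3 domain. Mest, a hydrolase gene, had 10.01 against 10.14 (-0.13), and Mir335 inside it 4.85 against 5.04 (-0.19). Igf2, a growth factor gene, had 6.68 against 6.34 (0.34), and Mir483 inside it 7.64 against 7.48 (0.16). Host and microRNA had the same sign in both loci, which were chosen after their values were seen, and in 42 of all 84 pairs. Mir335 was below the filter on both arrays, and Igf2 passed only through the array with doxycycline.

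Of the genes that make and use microRNAs, 4 had differences below -0.5 and the other 24 lay within 0.5 of 0. All 28 genes of the list were measured and 26 passed the filter. The number called was 0, near the 1.69% of all passing genes called in either direction, and the median difference was -0.06 with 19 negative. The nuclear processing enzyme Drosha had 9.90 on each array, whereas its partner Dgcr8 had 9.03 against 9.54, a difference of -0.51. Srrt, which links capped transcripts to Drosha, was the lowest of the list with 9.60 against 10.23 (-0.63). The helicase gene Ddx17, a Drosha cofactor, had 10.20 against 10.59 (-0.39). The exportin gene Xpo5 (-0.03) and the cytoplasmic processing enzyme gene Dicer1 (0.17) were near 0, as was Ago2 (0.06), the Argonaute that can cut its target.

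Among effectors and regulators, Tnrc6b, a scaffold of silencing complexes, had 8.49 against 9.06 (-0.57). Trim71, an RNA-binding ubiquitin ligase that is itself a let-7 target, had 9.52 against 10.03 (-0.51). Tut4, a terminal uridylyltransferase that marks let-7 precursors for decay, had 9.85 against 10.15 (-0.29). Lin28a, which blocks let-7 processing, had 9.70 against 9.56 (0.14) and Lin28b 8.26 against 8.33 (-0.07). No gene of this list differed by more than 1.55-fold.

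**Figure D5:**
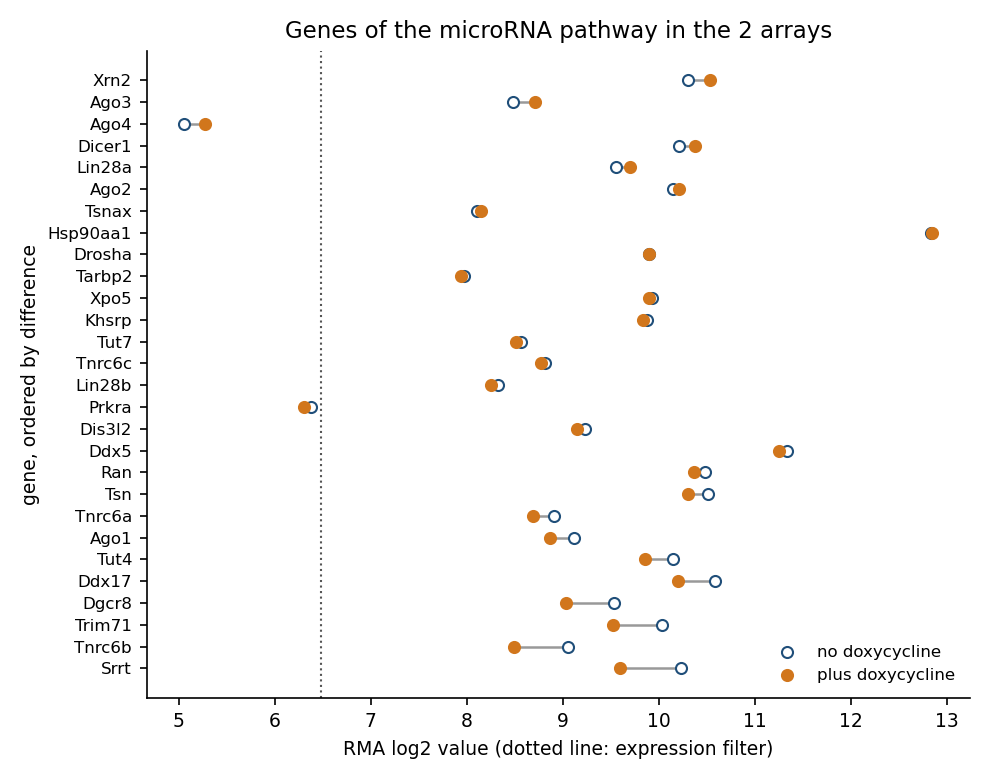
RMA log2 value (horizontal axis) of the 28 microRNA pathway genes (vertical axis, ordered by difference), open circles without doxycycline and filled circles with it, 1 array each; the dotted line is the expression filter. Srrt at -0.63, Tnrc6b at -0.57, Trim71 and Dgcr8 at -0.51 have the widest gaps, and for Drosha the circles coincide.

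The microRNA genes of the Dlk1 to Dio3 domain and the small nucleolar RNA genes, which are short transcripts too, show where the members stand. Of 40 microRNA genes in the domain, 34 were negative, with a median difference of -0.54, and 4 of the 18 that passed were called lower, against 0.768% of all passing genes. Of the 51 small nucleolar RNA genes, 38 were negative, with a median of -0.18, and 0 of the 48 that passed were called, against 1.69% of all passing genes. The 260 members had a median of 0.01. The classes lie at unlike levels, with a median level of 5.61 in the domain, 8.66 for small nucleolar RNA genes and 5.16 for the members. After subtraction of the median difference of genes of like level, the medians were -0.51, -0.13 and -0.01 in that order. In the domain, hairpin GC and difference had an r of 0.41 over 39 genes, as in the members. These are values of the same 2 arrays, and the differences between the classes have no test.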

How the data were processed

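Gene expression was measured on 2 Affymetrix arrays, 1 a group, from 300 ng of total RNA each, per the labels' protocols. The authors ran RMA in Affymetrix Expression Console, per the submitters' processing notes, and the deposited table holds 1 log2 value for each of 35556 probesets and array. Their software versions and genome build were not given in the sources used here. RMA aligns the arrays, so a shift shared by most genes would not be visible, and it compresses differences of dim probesets. Values ran from 2.49 to 14.2 on both arrays. Precision is limited by there being 1 array a group. The platform annotation assigned 21789 probesets to 1 gene, 1621 to several and left 12146 unlisted. A gene's value was the mean of its single-gene probesets. All 260 members matched the gene table of GRCm38.p6, used for position and order. A cluster joined microRNA genes with gaps of at most 10 kb. Host strands were taken from RefSeq sequences, and 30 pairs of a microRNA and a host without a strand were left out. Genes named are the member called, the 12 largest differences in each direction among passing members, listed clusters, the 6 brightest members, and the 6 largest differences of hosts and pathway genes. Seed relatives, cluster neighbours, imprinted pairs, Mir132 and Mir340 were chosen after their values were seen. With 1 array a group no test was made. As a yardstick for changes between settings, probesets of the same gene had differences with an SD of 0.167 (492 genes with 2 passing probesets), which is no error between cultures. Alternatives were other filters, an offset of 32, loess (span 0.3), quantile normalization, the brightest probeset, multi-gene probesets, a 1.5-fold threshold, gaps of 50 kb and, added after the data were seen, removal of a linear GC trend and the medians of the Mir106a, Mir106b and let-7 groups. The members and lists were chosen with earlier results of these data known. The 2-fold call, the median of a shifted Mir17 to Mir92 cluster and the loess step were tested on simulated data. The host, seed and GC steps were not. The software was pandas 2.3.3, NumPy 2.4.6, SciPy 1.17.1, statsmodels 0.14.6 and matplotlib 3.10.9 under Python 3.11.15.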

Additional observations from a re-analysis of the deposited data

How the results depend on the processing

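The count of microRNA genes called lower, 1 as reported, was 4 at a 1.5-fold threshold, 2 with the filter at the 25th percentile, without a filter or after loess, and 0 with the filter at the 75th percentile or with 32 added to linear values. At 1.5-fold, 3 microRNA genes were higher, where 0 were at 2-fold. The same threshold called 4 of the 46 passing host genes, 3 higher and 1 lower, and 1 of the 26 passing pathway genes, lower. Of all passing genes, 3.24% were higher and 3.8% lower at 1.5-fold. With 32 added to linear values, the median of the Mir17 to Mir92 cluster was -0.67 in place of -0.94. That of Mir106a to Mir363 was -0.28 in place of -0.59. The addition shrinks differences of dim genes by construction. The median of the 66 passing members was 0.18. Removal of the GC trend could be made for 49 of them and gave -0.050, where the same 49 had 0.16 before it. It centres the members on 0 by construction. The let-7 median was 0.077 over the 2 members that passed, in place of -0.20 over 9. The other 82 comparisons of a count or median stayed within 1.5 times or within 0.167 of the reported value. Of 102 values of 34 named genes under offset, loess and quantile normalization, 101 kept their sign, the exception being Mir92-2 at -0.02 after loess. In size, 8 of the 102 moved by more than 0.167, all with 32 added. These were Mir363 (-0.48), Mir19b-2 (-0.33), Mir20a (-0.45), Mir106a (-0.28), Mir19a (-0.67), Mir19b-1 (-0.69), Mir30e (-0.67) and Mir345 (0.64). The Mir290 to Mir295 cluster gave no value under any setting, and no member of Mir106a to Mir363, Mir302 or the Mir200 family passed the filter. No paired analysis was possible because each group holds 1 array. No detection calls were available, so dim signal could not be told from background. The filter is the median of all values and not a detection limit, and 194 of the 260 genes lay below it.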

Other observations

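Probesets that name several genes entered no count or median of members above. Of these, 61 name a microRNA, and 65 microRNA genes are represented only there. They include 22 probesets of the repeated Mir467a and Mir669a hairpins on chromosome 2, whose mean levels lay between 2.81 and 3.24 and whose differences lay between -0.16 and -0.06. Many of them hold identical values. The host gene Mir99ahg has 4 probesets, which differed by 0.44, -0.24, 0.17 and 0.15, and the 3 probesets of Mir713 differed by 0.01, 0.38 and -0.06. Mir132, with 5.45 against 4.70, had the largest positive difference among members below the filter (0.75), while its neighbour Mir212 had 6.82 against 6.64 (0.18). Mir340, with 3.54 against 4.35, had -0.81, and its host Rnf130 had 7.18 against 7.69 (-0.50).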
